A study of Mus musculus with 6 samples.

Results

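The genes described here build and line the nuclear envelope or bend and package chromatin with HMG domains: the lamins Lmnb1, Lmnb2 and Lmna, the inner nuclear membrane proteins Lbr, Tmpo and Emd, the HMG-box proteins Hmgb1, Hmgb2 and Hmgb3, and the AT-hook protein Hmga2. They were chosen by name, as every probe set of the array whose only annotated gene symbol was 1 of these 10. A probe set is a group of short probes on the array that reads 1 transcript or a few related ones. The rule found 25 probe sets for 9 of the 10 genes, out of 45037 probe sets tested and 18193 genes with a probe set of their own. Hmgb1 was the exception: the 5 probe sets that carry its symbol also carry other symbols, so that no value is given for it.

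RNA came from V720 cells, a mouse breast cancer line labelled as mammary epithelium, kept for 24 h in vehicle (3 samples) or in 1 µM PD0332991 (3 samples). PD0332991, also called palbociclib, is a small-molecule inhibitor of CDK4 and CDK6, the cyclin D kinases that phosphorylate the retinoblastoma protein at the start of the cell cycle. Each sample was total RNA hybridised to its own Affymetrix mouse array, and the design text describes the replicates as biological. The comparison covers a single cell line, dose and time, and it asks how the inhibitor changed RNA levels.

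Lamins are intermediate filament proteins that form a meshwork under the inner nuclear membrane. The B-type lamins are the products of Lmnb1 and Lmnb2 and stay tied to the membrane by a farnesyl group, whereas Lmna gives lamin A and lamin C by splicing. Lbr, Tmpo (lamina-associated polypeptide 2) and Emd (emerin) connect the lamina to the membrane and to chromatin, and HMGB and HMGA proteins bend DNA or hold it in an altered shape. In senescent cells, which have left the cell cycle for good, a loss of lamin B1 and of nuclear HMGB proteins is widely used as a marker, and Lbr, Tmpo and Hmgb2 are known from cycling cells for higher RNA in S, G2 and M phase.

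Among the 9 measured genes, Hmgb2, Lmnb1, Lbr and Tmpo had the largest falls, Hmgb3, Lmnb2 and Emd fell by less, Lmna did not pass the test, and Hmga2 rose. Of the 25 probe sets, 14 were lower with PD0332991 and 3 were higher at an adjusted p of 0.05, and 8 were not called. The test was limma's on log2(intensity + 16), with Benjamini-Hochberg adjustment over all 45037 probe sets. In the same fit 14.2% of all probe sets were called, 8.19% lower and 6.0% higher, against 56.0% of these probe sets called lower. Brightness differs between the 2 sides: 21 of these 25 were not below the median intensity of all probe sets. When only the 22519 brighter probe sets were tested, 9136 were called, 44.0% of them higher. Of these genes 21 probe sets were then tested, with 14 lower and 3 higher. The split between directions depended on the scaling. In the main fit 42.3% of all calls were higher, against 11.2% when arrays were centred on their spike-in probe sets, where 13 of these 25 were lower and 0 higher. The median log2 fold change was -0.37 over the 25 probe sets and -0.01 over all probe sets tested. A fall of at least 2-fold was seen in 5 of the 25, all from Lmnb1 or Hmgb2, against 0.806% of all probe sets. The vehicle and PD0332991 values did not overlap for 19 of the 25, against 34.1% of all. These figures describe genes that were listed with earlier results of the same arrays known, and probe sets of 1 gene read the same RNA, so they are not independent of each other. With bulk RNA, fewer cells of a kind and less RNA per cell cannot be told apart.

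**Figure D1:**
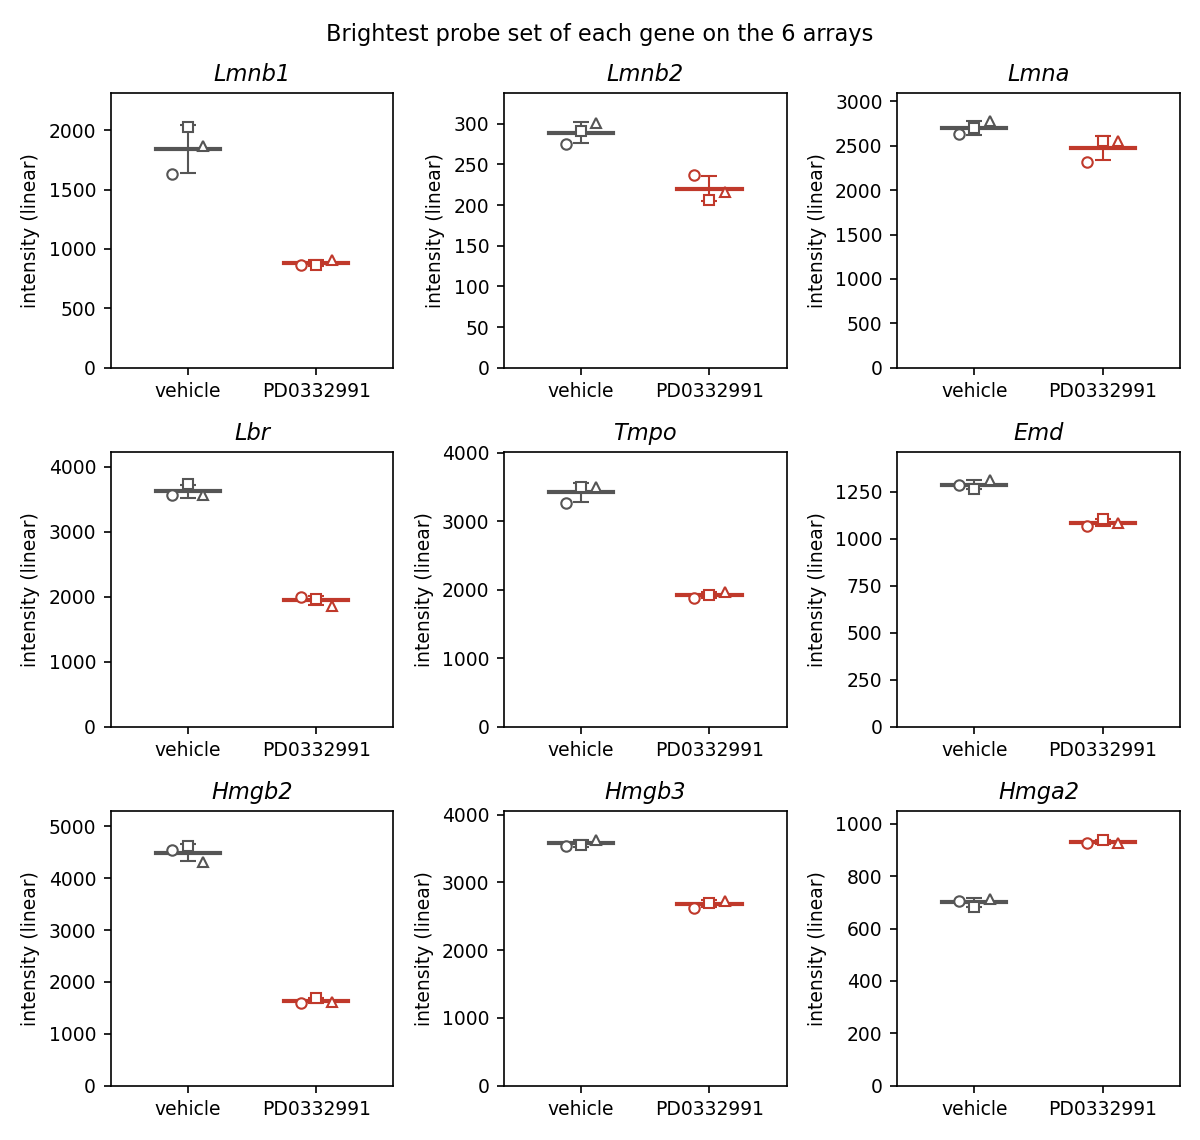
Linear intensity of the brightest probe set of each of the 9 measured genes on the 3 vehicle and 3 PD0332991 arrays. Points are arrays, bars are mean and SD (n = 3), and each panel has its own axis from 0. The groups do not overlap in any panel, and Hmga2 is the only gene with higher PD0332991 values.

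The arrays had like median intensities, between 69.56 and 72.74, which a scaling of the deposited table could have set. Their spike-in means ran from 9.742 (vehicle replicate 1) to 10.054 (PD0332991 replicate 1) on the log2 scale. Of 11 markers of mammary epithelium, 8 were above the median intensity of all probe sets, 71.65. Krt8 (9981 in vehicle and 10600.0 in PD0332991), Krt18, Epcam, Cdh1 and Cldn7 were not called, Krt7 (0.20, adjusted p = 0.0302) and Cldn4 (0.62, adjusted p = 0.0204) were higher, and Esrp1 was lower (-0.20, adjusted p = 0.0417). With any 1 array left out, 0 or 1 of the 11 were higher and 0 lower, and with spike-in centring 0 were called. The basal keratins Krt14 and Krt5 and also Krt19 were below that median and not called. Of the markers of other cell types, 1 of 7 for fibroblasts (Pdgfra), 1 of 6 for endothelium (Emcn) and 0 of 4 for adipocytes were called lower, and 2 of 7 for leukocytes (Ptprc and Cd68) were higher, a count that was 2 without vehicle replicate 3, 0 or 1 without any other array and 0 with spike-in centring. Counted on the brightest probe set of each gene, 9.05% of all genes were lower and 7.8% higher. Emcn was dim, at 13.17 in vehicle and 5.713 in PD0332991. The other Pdgfra probe sets were also dim and not called, at 0.04 and -0.11 (limma adjusted p = 0.871 and 0.614). The adipocyte markers Adipoq (9.12 and 12.39) and Cidec (9.223 and 15.0) were dim, and 0 of the 4 had an unadjusted p under 0.05 in limma. The summed intensities of the marker lists were 353.4 to 394.0 in vehicle and 301.2 to 329.1 in PD0332991 for fibroblasts, 134.1 to 149.0 and 139.2 to 152.7 for endothelium, 33.9 to 53.48 and 44.27 to 63.56 for adipocytes, and 2097 to 2194 and 2329 to 2459 for leukocytes. Most of the leukocyte sum was Cd14, at 1740.0 and 1905 and not called, and Ptprc, Cd3e, Itgam and Lyz2 were below the median of all probe sets. Ptprc, the marker carried by nearly all leukocytes, stood at 11.63 and 18.18. Genes of S phase and mitosis fell: 17 of 17 measured were called lower, against 9.05% of all genes. Their median change was -1.41 on the log2 scale, with a summed intensity of 52870 to 54140 in vehicle and 23220 to 24270 in PD0332991. Their part in the changes described below was not tested.

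The sequence upstream of these genes is shown because cell-cycle genes often carry short promoter elements. The CHR (cell cycle genes homology region, TTTGAA) is an element through which the MuvB complexes act, CCAAT is the box bound by NF-Y, and E2F factors bind words such as TTTCCCGC. These motifs were picked after the values had been seen. The promoter windows are those of RefSeq on the GRCm38.p6 assembly, from 250 bases before to 50 bases after an annotated start, and 9 of the 10 listed genes had 13 windows there, Hmgb1 among them. Lmnb1 had none. In the stretches below, written 5′ to 3′ on the strand of the gene and ending just before the start unless stated, capitals mark the CHR and CCAAT words on either strand.
Hmgb2, chr8:57511768-57511842, plus strand: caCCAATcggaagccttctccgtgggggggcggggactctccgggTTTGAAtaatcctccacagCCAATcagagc
Lbr, chr1:181842402-181842491, minus strand: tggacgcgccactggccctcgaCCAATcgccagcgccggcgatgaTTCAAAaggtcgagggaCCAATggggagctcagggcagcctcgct
Tmpo, second annotated start, chr10:91170551-91170623, minus strand: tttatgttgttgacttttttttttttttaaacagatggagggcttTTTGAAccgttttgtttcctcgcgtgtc
Hmgb3, chrX:71555750-71555845, plus strand, upstream of the start by 72 bases at its end: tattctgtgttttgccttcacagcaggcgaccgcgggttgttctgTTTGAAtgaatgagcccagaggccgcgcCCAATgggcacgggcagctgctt
Emd, chrX:74254607-74254686, plus strand: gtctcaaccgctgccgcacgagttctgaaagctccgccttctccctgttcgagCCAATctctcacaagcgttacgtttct
Hmga2, chr10:120476470-120476549, minus strand: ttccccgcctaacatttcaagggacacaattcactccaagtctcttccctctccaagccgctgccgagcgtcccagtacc

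The CHR word was in the windows of 4 of the 9 genes, Hmgb2, Lbr, Tmpo and Hmgb3. Each of those was called lower, but so were Lmnb2 and Emd, whose windows held no CHR word. The windows of Lmna (not called) and Hmga2 (higher) held none either. The CHR word lay at position -30 and again at -218 in Hmgb2, at -45 in Lbr, at -28 from the second annotated start of Tmpo and at -122 in Hmgb3. Of all genes with a window, 20.2% held the word in a window on either strand, which is the share to read beside it. The CCAAT word was in 7 of the 9 genes (all but Lmnb2 and Hmga2) against 41.1% of all genes. An E2F word (TTTCCCGC, TTTGGCGC, TTTCGCGC or TTTGCCGC) was in 1 of the 9, at -195 from the second start of Tmpo, against 2.6% of all genes. In the Hmgb2 stretch the CHR word lies between CCAAT boxes at -73 and -11, and in the Lbr stretch between boxes at -68 and -28. The words do not overlap each other. A match is a description of the letters, not a binding site, and a window without one says only that these letters are not in it.

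**Figure D2:**
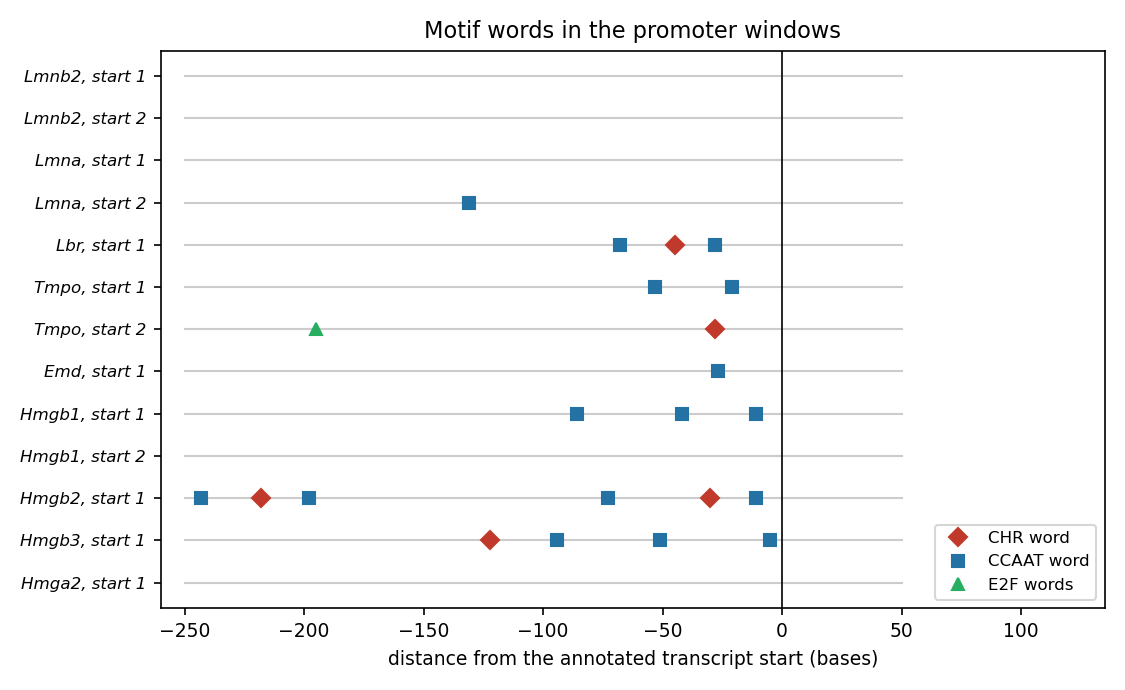
Positions of the CHR, CCAAT and E2F words in the 13 RefSeq promoter windows of 9 genes. The horizontal axis is the distance in bases from the annotated start and each row is a window. The CHR word appears in windows of Hmgb2, Lbr, Tmpo and Hmgb3. The Lmnb2 and Hmga2 rows are empty, as are those of Lmna start 1 and Hmgb1 start 2.

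Lmnb1 encodes lamin B1, and it fell the most among the lamins. Its brightest probe set, 1423521_at, read 1629, 2026 and 1865 on the vehicle arrays and 868, 863 and 910 on the PD0332991 arrays. All PD0332991 values were far below all vehicle values, and vehicle replicate 1 was the lowest of its group. The mean went from 1840.0 ± 200 to 880.2 ± 25.6 (SD, n = 3), which is -1.05 on the log2 scale (SE 0.086, 95% interval -1.26 to -0.83, limma adjusted p = 0.0014). The other Lmnb1 probe set, 1423520_at, read 773, 994 and 927 in vehicle and 397, 371 and 423 in PD0332991. Here too vehicle replicate 1 was the lowest vehicle array and the groups did not overlap. Its log2 fold change was -1.14 (SE 0.104), or 2.204-fold lower, with an adjusted p of 0.00209. Ordered by fold change from the lowest, these probe sets stood 336th and 279th of the 45037. Without vehicle replicate 1, the change of the brightest probe set was -1.13.

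Lmnb2 encodes lamin B2, the other B-type lamin, and it fell by less. Its brightest probe set, 1448531_at, read 276, 291 and 301 in vehicle and 237, 206 and 217 in PD0332991, with no overlap. The log2 fold change was -0.37 (SE 0.064, adjusted p = 0.0174), a 1.295-fold fall. The call was lost when PD0332991 replicate 2 or 3 or vehicle replicate 2 or 3 was left out, at adjusted p-values of 0.0551, 0.0622, 0.0603 and 0.0627, and with its probe sets averaged (-0.23, adjusted p = 0.0529). The other Lmnb2 probe set was dim (32.1 ± 2.69 and 29.77 ± 8.71, SD, n = 3), overlapped between groups and was not called, with an adjusted p of 0.749.

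Lmna, the source of lamins A and C, had 5 probe sets and none was called. The brightest, 1421654_a_at, read 2628, 2702 and 2784 in vehicle and 2313, 2553 and 2552 in PD0332991. The groups did not overlap, with PD0332991 replicate 1 the lowest array, but the log2 fold change of -0.13 (SE 0.057) had a 95% interval from -0.27 to 0.01 and an adjusted p of 0.21. The data therefore allow a fall of up to 0.27 on the log2 scale and do not show that Lmna was unchanged. The other 4 probe sets had log2 fold changes of -0.07, -0.09, -0.09 and, on a dim one, 0.10, with adjusted p-values from 0.427 to 0.808 and overlapping groups.

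The lamins could be set against each other array by array, as the log2 difference between their brightest probe sets. From vehicle to PD0332991, the difference between Lmnb1 and Lmna changed by -0.92 ± 0.09 (SE). For Lmnb1 against Lmnb2 it was -0.67 ± 0.093 (SE), and for Lmnb2 against Lmna -0.24 ± 0.10 (SE). These were 3 of 6 such pairs, and in all 6 the vehicle and PD0332991 arrays did not overlap. The exact two-sided permutation test over 3 against 3 arrays gave p = 0.1 for every pair, and 0.1 after Benjamini-Hochberg adjustment over the 6. That is the smallest p this design can give, so that no pair can pass 0.05.

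Lbr encodes the lamin B receptor, an inner membrane protein that binds B-type lamins and heterochromatin protein 1 and also acts as a sterol reductase. Its only probe set, 1415829_at, read 3565, 3742 and 3570 in vehicle and 1998, 1972 and 1860.0 in PD0332991. The 3 vehicle arrays lay close together, and so did the 3 treated arrays at a much lower level. The mean fell from 3625 ± 101 to 1943 ± 73.4 (SD, n = 3), which is -0.89 on the log2 scale (SE 0.049, adjusted p = 0.000285) or 1.859-fold. Its promoter stretch is the one printed above with the CHR word read on the opposite strand.

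Tmpo encodes the LAP2 proteins, of which the alpha form is nucleoplasmic and binds lamin A and C together with the retinoblastoma protein, and the beta form sits in the membrane and binds B-type lamins. The brightest of its 6 probe sets, 1452036_a_at, read 3265, 3499 and 3503 in vehicle and 1884, 1924 and 1970 in PD0332991. No treated array came near a vehicle array. The log2 fold change was -0.82 (SE 0.049, adjusted p = 0.000371), a 1.77-fold fall. Another 3 probe sets fell to a like degree, with log2 fold changes of -0.77, -0.88 and -0.96 and adjusted p-values of 0.000752, 0.00139 and 0.00013. The next, at 168.5 ± 16.8 in vehicle and 121.1 ± 6.29 in PD0332991 (SD, n = 3), fell by 0.42 on the log2 scale (adjusted p = 0.0225), a call that was kept without vehicle replicate 1 and lost without any other single array, at adjusted p-values from 0.0627 to 0.078. The last was dim and not called (-0.04, adjusted p = 0.919). Which Tmpo transcript each probe set reads was not analysed here.

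Emd encodes emerin, a LEM-domain protein that binds the chromatin factor BAF and lamin A. Its probe set, 1417357_at, read 1286, 1262 and 1313 in vehicle and 1066, 1104 and 1084 in PD0332991. The treated values were lower on every array, by a small margin that the tight replicates resolved. The log2 fold change was -0.24 (SE 0.041, adjusted p = 0.016), a 1.184-fold fall. The call was lost without PD0332991 replicate 1 or 3 or vehicle replicate 1 or 3, at adjusted p-values of 0.0576, 0.0546, 0.0539 and 0.0585, and with the arrays centred on their spike-ins (-0.37, adjusted p = 0.0802). Against Emd, Lbr was lower by a further 0.65 and Tmpo by a further 0.58 (log2 differences of -0.65 ± 0.053 and -0.58 ± 0.041, SE), with the groups not overlapping and the exact permutation p at its floor of 0.1.

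**Figure D3:**
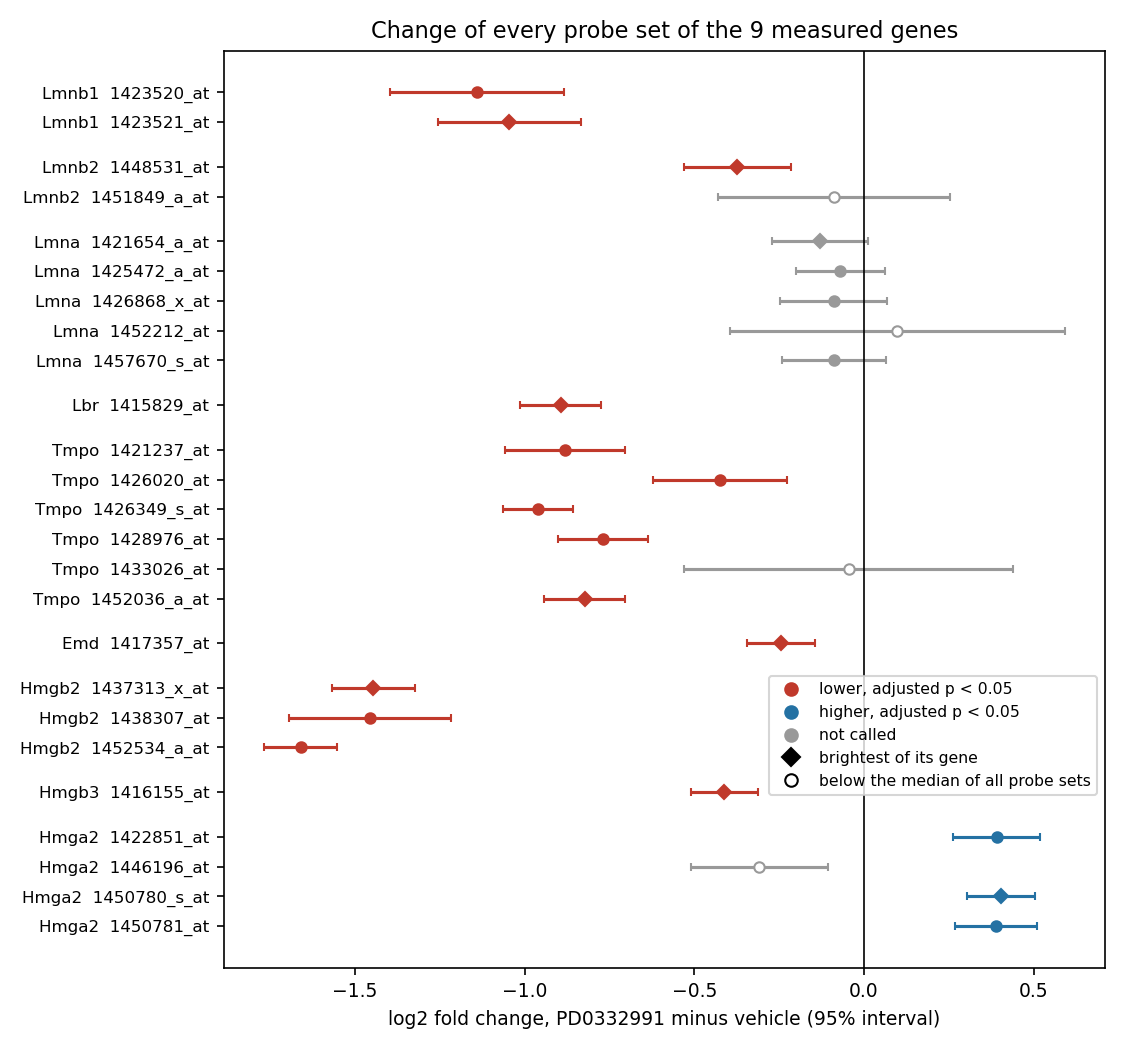
Log2 fold change of each of the 25 probe sets, PD0332991 minus vehicle, with 95% intervals from limma. Diamonds are the brightest probe set of a gene, colours give the call, and open symbols lie below the median intensity of all probe sets. The Hmgb2 and Lmnb1 probe sets lie farthest to the left, and none of the 4 open symbols was called.

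Hmgb2 encodes an HMG-box protein that bends DNA and is abundant in dividing cells, and it had the largest fall of the measured genes. Its brightest probe set, 1437313_x_at, read 4550.0, 4616 and 4309 in vehicle and 1600, 1700 and 1617 in PD0332991. The mean fell from 4492 ± 162 to 1639 ± 53.4 (SD, n = 3), which is -1.45 on the log2 scale (SE 0.05, adjusted p = 8.97e-05) or 2.724-fold. All treated arrays were far below all vehicle arrays, and each group was tight.

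The other Hmgb2 probe sets moved with it. The first, 1452534_a_at, read 3619, 3508 and 3394 in vehicle and 1093, 1115 and 1085 in PD0332991, a 3.162-fold fall (log2 fold change -1.66, SE 0.044, adjusted p = 8.97e-05). It was the 88th lowest fold change of the 45037 probe sets and the largest fall among the 25. The second, a weaker signal at 191, 190 and 184 in vehicle, read 48, 66 and 63 in PD0332991 (log2 fold change -1.46, SE 0.097, adjusted p = 0.000603). Its treated group contained the lowest array of all, PD0332991 replicate 1. None of the 3 probe sets overlapped between groups.

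Hmgb3, an HMG-box protein best known from progenitor cells, fell by less. Its probe set, 1416155_at, read 3539, 3559 and 3629 in vehicle and 2630, 2697 and 2726 in PD0332991. Replicates of a group differed little and the groups did not overlap. The log2 fold change was -0.41 (SE 0.04, 95% interval -0.51 to -0.31, adjusted p = 0.00259), a 1.33-fold fall. The log2 difference between Hmgb2 and Hmgb3 was 0.33 ± 0.07 in vehicle and -0.71 ± 0.043 in PD0332991 (SD, n = 3). The change of -1.03 ± 0.047 (SE) was the largest among the 6 pairs, with the exact permutation p again at 0.1.

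Hmga2 encodes an AT-hook protein of embryonic and tumour cells whose RNA is a target of the let-7 microRNAs, and it was the only gene of the 9 called higher. The brightest of its 4 probe sets, 1450780_s_at, read 705, 681 and 712 in vehicle and 928, 939 and 926 in PD0332991. All treated arrays were above all vehicle arrays. The mean went from 699.5 ± 16.4 to 931.1 ± 6.64 (SD, n = 3), which is 0.40 on the log2 scale (SE 0.041, adjusted p = 0.00279) or 1.324-fold. Another 2 probe sets gave 0.39 each, with adjusted p-values of 0.00738 and 0.00578. The fourth was dim and pointed the other way. It read 57, 52 and 58 in vehicle and 39, 49 and 39 in PD0332991, with no overlap, a log2 fold change of -0.31 and an adjusted p of 0.062. The rise also depended on the scaling of the arrays. When each array was centred on its 9 spike-in probe sets, which moved the median of all probe sets to -0.13, the rise was 0.28 with an adjusted p of 0.19. With vehicle replicate 1, the array with the lowest spike-in signal, also left out, it was 0.37 with an adjusted p of 0.0643. With the 4 probe sets averaged, the dim one included, it was 0.22 with an adjusted p of 0.019.

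**Figure D4:**
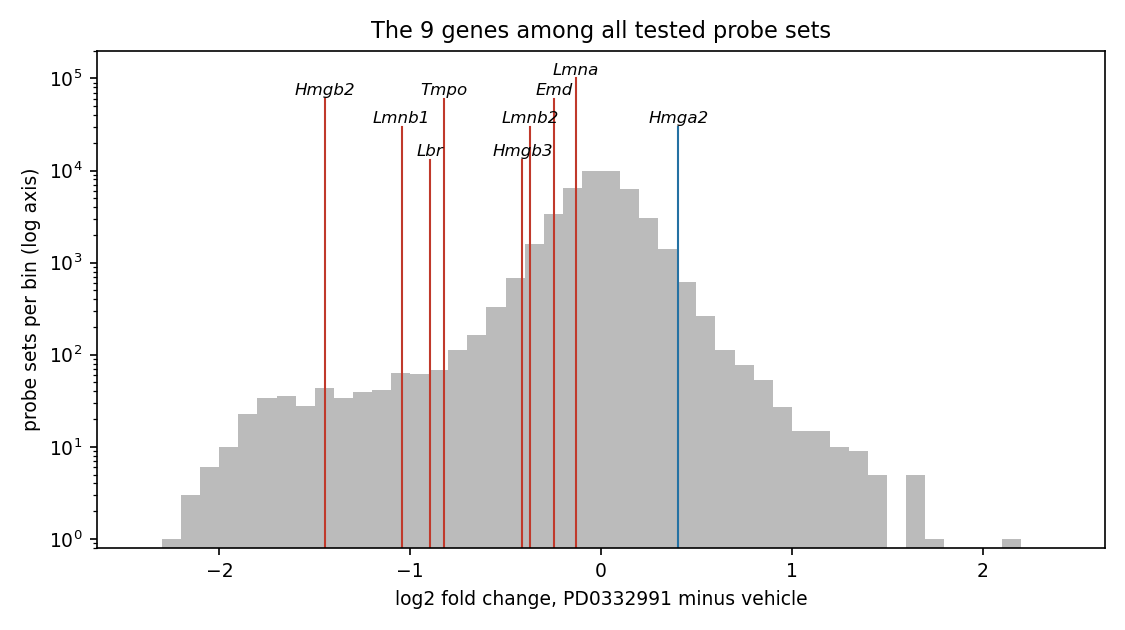
Number of probe sets per log2 fold change bin over all 45037 tested probe sets, on a log axis, with the brightest probe set of each of the 9 genes marked. Hmgb2 at -1.45 and Lmnb1 at -1.05 lie in the left tail, Lmna at -0.13 in the bulk, and Hmga2 at 0.40 on the right.

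The genes whose 6-array pattern was most like that of Lmnb1 or Hmgb2 were found by the root mean square difference of log2 values centred on each gene. For Lmnb1 they were Sass6, a centriole assembly protein, at 0.063, Fignl1, an ATPase of homologous recombination, at 0.066, and Zranb3, a replication fork remodeller, at 0.067. For Hmgb2 they were Rrm2, a subunit of ribonucleotide reductase, at 0.019, Pbk, a mitotic kinase, at 0.031, and Lig1, the replicative DNA ligase, at 0.034. Their log2 fold changes were -1.02, -1.03 and -1.01 for the first 3 and -1.43, -1.42 and -1.47 for the others. Fold changes near those of Lmnb1 and Hmgb2 follow from how these genes were picked and are not a separate result.

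The wider nuclear envelope moved in part. Each of the lists that follow counts 1 probe set a gene, the brightest, and over all 18193 genes 9.05% of such probe sets were lower and 7.8% higher, with a median of 0.005. For the 9 genes themselves the counts on that basis were 7 lower and 1 higher, with a median of -0.41. That is 8 of 9 called, against 16.8% of all genes, and 2 of 9 at least 2-fold lower, against 1.15%. Brightness differs here too, since 0 of the 9 were below the median intensity of all probe sets. When only the brighter probe sets were tested, 9136 of 22519 were called. Their groups did not overlap in 9 of 9, against 38.9% of all genes. Of 23 partners (LINC complex, LEM-domain and other membrane proteins) 8 were lower and 1 was higher, with a median of -0.09. The nesprin Syne2, which links the nucleus to the cytoskeleton, went from 346.6 to 211.8 (-0.67, adjusted p = 0.000916), and its partner Sun2 from 2503 to 1711 (-0.54, adjusted p = 0.00188). The related Sun1 and Syne1 were not called, at 0.02 and 0.03. Nrm, the membrane protein nurim, went from 225.0 to 96.68 (-1.10, adjusted p = 0.0004), although a second, very dim Nrm probe set gave 0.10. Banf1, which encodes the emerin-binding factor BAF, went from 2882 to 2152 (-0.42, adjusted p = 0.00424). Tmem120a was the gene called higher, at 0.31 (adjusted p = 0.0212). With any 1 array left out, 6 partners were called lower and 0 or 1 higher, and with spike-in centring 6 were lower and 0 higher.

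Nucleoporins, which build the pores that cross both nuclear membranes, were lower in 19 of 26 measured and higher in 1, the median change being -0.30. Of the 26, 0 were below the median intensity of all probe sets. Nup37 (1121 to 682.8, log2 fold change -0.70, adjusted p = 0.000959) and Nup133 (896.5 to 567.9, -0.64, adjusted p = 0.000983), both of the scaffold ring of the pore, were the most clearly lower. Sec13, which also coats secretory vesicles, was higher (0.23, adjusted p = 0.0252), a call that was lost with spike-in centring. With any 1 array left out, 13 to 15 were called lower, and 11 with spike-in centring and no vehicle replicate 1. The enzymes that farnesylate, cleave and methylate prelamins gave 0 calls by limma in 5 measured, and 0 at an unadjusted p of 0.05, with a median of -0.02, and Fntb (-0.11) and Icmt (0.075) had the smallest p-values, at an adjusted p of 0.253 and 0.478.

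**Figure D5:**
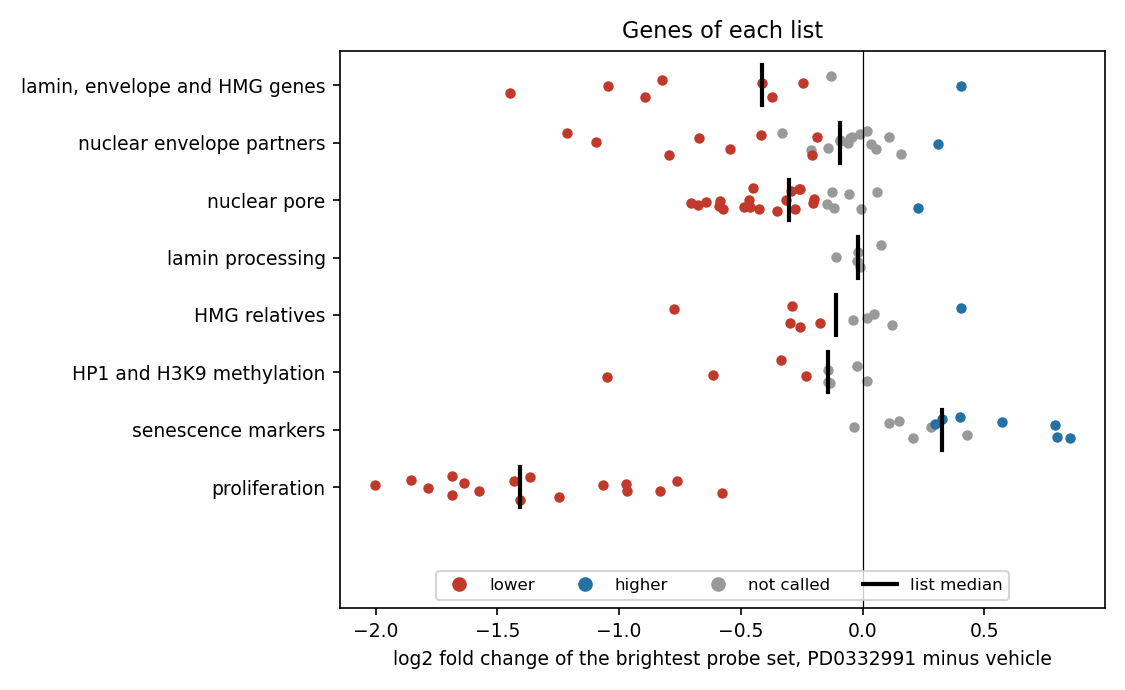
Log2 fold change of the brightest probe set of each gene, PD0332991 minus vehicle, for the 9 genes and 7 lists. Red points were called lower, blue higher and grey not called, and black bars are list medians. The medians run from -1.41 for proliferation to 0.33 for senescence markers.

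Chromatin genes near the HMG proteins gave mixed counts. Of 10 measured HMG relatives 5 were lower and 1 was higher, with a median of -0.11, and with any 1 array left out 2 or 3 were called lower (2 without vehicle replicate 1 or 2). The nucleosome-binding Hmgn5 was the most clearly lower (2488 to 1448, log2 fold change -0.77, adjusted p = 0.000364), followed by Tfam, which packages mitochondrial DNA (-0.29, adjusted p = 0.00965). Hmg20b was higher (0.40, adjusted p = 0.0231), a call that was lost with spike-in centring. Of 9 genes for heterochromatin protein 1, which Lbr binds, and for H3K9 methylation, 4 were lower and 0 higher, with a median of -0.14. The methyltransferase Suv39h2 fell by 1.05 on the log2 scale (adjusted p = 0.00165). Cbx3, an HP1 gene, fell by 0.62 (adjusted p = 0.00384) on a weak signal, from 87.08 to 51.23, near the median of all probe sets, 71.65. Cbx5, another HP1 gene, went from 1227 to 968.7 (-0.34, adjusted p = 0.00728).

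None of the genes often read beside Hmga2 was called, and 3 of the 6 measured were below the median intensity of all probe sets. Of 6 measured genes of the let-7 and oncofetal group limma called 0, and 1 (Dicer1, lower) at an unadjusted p of 0.05, with a median of -0.13. Dicer1, which cuts microRNA precursors, was at -0.17 (adjusted p = 0.086), and Lin28b, which blocks let-7 processing, was near the background of the array at 6.507 in vehicle and 4.41 in PD0332991. Of 5 receptors of released HMGB1, Cxcr4 alone was called, falling from 240.6 to 125.1 (-0.86, adjusted p = 0.000603).

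Among 13 measured genes read beside lamin B1 in senescence, 7 were higher and 0 lower, with a median of 0.33. Of the 13, 8 were below the median intensity of all probe sets. Cdkn1a, which encodes the CDK inhibitor p21, went from 626.7 to 1104 (0.80, adjusted p = 0.0014), and the chemokine gene Cxcl1 from 695.2 to 1213 (0.79, adjusted p = 0.000387). Il6 rose by 0.85 (adjusted p = 0.000397) from a dim 30.48 to 67.81. Cdkn2a, the gene of p16, was not called and read 7.907 and 9.77. The counts of higher genes ranged from 5 to 6 without any 1 array and fell to 4 when the arrays were centred on the spike-ins. Beside them Mki67, which encodes the proliferation antigen Ki-67, went from 4197 to 1037, a 4.006-fold fall (adjusted p = 8.97e-05), and the licensing gene Cdc6 from 754.5 to 223.4 (-1.69, adjusted p = 8.97e-05).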

How the data were processed

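Total RNA of 6 samples, 3 vehicle and 3 PD0332991 by title and agent, was biotin-labelled and hybridised to Affymetrix arrays, per the labels' protocols. The authors deposited a table of linear intensity values, 1 per probe set and array, for 45101 probe sets; the summarisation and scaling methods are not given in the sources used here, and if arrays were brought to 1 overall level, altered RNA per cell would be hidden. The scanner files were not used here. Of 45037 probe sets left after 64 controls, the platform annotation, whose symbols can be old, gave 34945 a single symbol, 932 several and 9160 none. Of 18193 genes, 18032, including all 9 with values, matched the RefSeq gene table (GRCm38.p6), which is separate from its promoter table.

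Values were taken as log2(intensity + 16), which understates changes of dim probe sets, and compared between groups by a two-sided moderated test (limma 3.58.1, lmFit and eBayes, under R 4.3.3) without block or filter, adjusted over all probe sets. Fold changes are on that scale. No further normalisation was applied, and the number of arrays limits the precision. The fit was checked on simulated data. Every probe set of the listed genes was described, led by the brightest by mean log2. From each other list up to 4 genes were named by smallest p, at most 2 called higher and 2 called lower, or the 2 smallest p where none was called. Sun1, Sun2, Syne1, Banf1, Cbx5, Cdkn1a, Cdkn2a, Krt8, Krt18, Epcam, Cdh1, Cldn7, Krt14, Krt5, Krt19, Cd14, Cd3e, Itgam and Lyz2 were added after their values were seen. The genes and lists were chosen with earlier results of these data known. No pairing of samples by replicate number was assumed. Deviations of same-numbered arrays correlated at -0.03, -0.11 and 0.14, and those of differently numbered arrays at -0.148 to 0.16. With 3 arrays a group this cannot settle whether the samples were paired. Alternatives were other scalings, pseudocounts, filters, probe set summaries, variance models, thresholds, a replicate block and leaving out each array. Python 3.11.15 and matplotlib 3.10.9 were used for joins and plots.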

Additional observations from a re-analysis of the deposited data

How the results depend on the processing

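Over 19 alternatives no change of the 9 genes reversed direction, and Lmnb1 (-1.18 to -0.97), Lbr (-1.02 to -0.86), Tmpo (-0.95 to -0.65), Hmgb2 (-1.66 to -1.42) and Hmgb3 (-0.54 to -0.38) kept their calls in all of them. Lmnb2 lost its call as the mean of its probe sets (-0.23, adjusted p = 0.0529) and, as said above, without 4 of the 6 arrays. Emd lost its call with the spike-in centring (adjusted p = 0.0802, or 0.113 without vehicle replicate 1) and without 4 of the 6 arrays, and Hmga2 with both spike-in settings. Lmna passed with trend and robust settings of eBayes (adjusted p = 0.0258). The causes were not tested.

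Of the 25 probe sets 17 were called in the main analysis. With each array left out in turn 14 to 16 were called. At 1 brightest probe set a gene 8 of 9 were called, 7 lower and 1 higher, and with probe sets averaged per gene 7 of 9, 6 lower and 1 higher. At a 2-fold minimum 5 were called, 5 lower and 0 higher, and with either spike-in setting 0 were called higher. The count over all probe sets was 6391 (42.3% higher). It was 3820 at the brightest probe set per gene and 3031 with gene means, where fewer features were tested. It was 9693 with trend and robust settings, 3439 to 3753 with each array left out, 2340 at a threshold of 0.01 and 424 at a 2-fold minimum. It was 3379 with spike-in centring (11.2% higher) and 2185 with vehicle replicate 1 also left out (21.6% higher).

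With the replicate number as a block, 2305 probe sets were called over the array and 14 of the 25, 11 lower and 3 higher. Calls for Lmnb2 (adjusted p = 0.0808) and Emd (adjusted p = 0.0795) were lost, the nucleoporins called lower numbered 11 of 26 and the HMG relatives 1 of 10. Whether the numbers pair the samples was not settled, so that this fit is given beside the main one. Of the 6 pair differences, every alternative kept the sign, and Lmnb2 against Lmna had an exact permutation p of 0.2 at a pseudocount of 64 and after quantile normalisation. With an array left out or with the replicate block, the smallest possible p is above the 0.1 of 3 against 3 arrays. No pair could reach 0.1 in those settings. The pairs of Hmgb1 with Hmgb2 and Hmgb3 could not be computed. Signals below 71.65 were the limit on 4 of the 25 probe sets.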
